A study of Mus musculus with 4 samples.

Results

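Expression of 10 genes of monocytes, dendritic cells and MHC class II antigen presentation was examined in donor-derived myeloid progenitors with and without a Bcor mutation. The genes were chosen by name: Cd74, H2-Aa, H2-Ab1 and H2-Eb1 of the class II pathway, and Ccr2, Ly86, F13a1, Fn1, Ly6c2 and Cd68 of monocytes and macrophages. All 10 were present among the 12067 genes of the count table. Whole bone marrow of tamoxifen-treated male donors was grafted into sub-lethally irradiated congenic Ptprca recipients, and 20 weeks later CD45.2+ Lin- cKIT+ Sca-1- cells (KL cells) were sorted from recipient marrow for Quant-seq, a 3′ mRNA sequencing method. Both groups carried the floxed allele Bcorfl/y on their single X chromosome. The 2 BcorΔE9-10 libraries also carried scl-Cre-ERT, a tamoxifen-inducible Cre driven in haematopoietic stem cells by Scl (Tal1) regulatory sequence, which removes exons 9 and 10 and leaves a truncated protein. The 2 BcorWT libraries had no Cre, so that Cre itself was absent from the control. Donors were adult when treated, the irradiated hosts kept haematopoietic cells of their own, which the CD45.2 gate was meant to leave out, and neither the labels nor the methods say whether the 2 libraries of a group came from separate recipients.

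MHC class II molecules are pairs of an α and a β chain that display peptides from endocytosed proteins to CD4+ T cells. The chains assemble in the endoplasmic reticulum with the invariant chain, which blocks the peptide groove and is later cleaved in endosomes, where H2-DM helps peptides to load. Dendritic cells, B cells and macrophages carry class II at high levels, and transcription of its genes depends on the coactivator Ciita, which acts through RFX, CREB-family and NF-Y proteins bound to a conserved promoter module. Monocytes arise from KL cells by way of granulocyte-monocyte and monocyte-dendritic progenitors, and express Ly6c2, Ccr2, F13a1, Fn1 and Cd68 at different steps of that path.

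The promoters of class II genes are shown because the 4 class II genes are described as a group below. RefSeq promoter windows on GRCm38.p6, from 250 bases before to 50 bases after the start, were matched for 7 of the 10 genes and not for Cd74, H2-Ab1 and Fn1, so that H2-Aa and H2-Eb1 alone stand for the class II group here. The stretch from 110 to 21 bases before the start is printed 5′ to 3′ on the strand of the gene for H2-Aa (chr17:34287844-34287933, minus strand) and H2-Eb1 (chr17:34305757-34305846, plus strand). The same stretch is printed for the relatives H2-DMb1 (chr17:34153081-34153170, plus strand) and H2-Ob (chr17:34238795-34238884, plus strand). Capitals mark the motifs searched on both strands, CCAAT with its reverse complement ATTGG (the core that NF-Y recognises) and TGACG with its reverse complement CGTCA (a CREB half-site), which overlap in H2-Aa.
H2-Aa: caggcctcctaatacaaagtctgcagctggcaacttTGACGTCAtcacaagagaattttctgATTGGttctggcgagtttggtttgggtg
H2-Eb1: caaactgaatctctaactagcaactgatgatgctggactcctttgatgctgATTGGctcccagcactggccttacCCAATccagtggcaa
H2-DMb1: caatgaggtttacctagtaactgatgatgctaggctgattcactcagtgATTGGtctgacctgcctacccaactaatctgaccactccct
H2-Ob: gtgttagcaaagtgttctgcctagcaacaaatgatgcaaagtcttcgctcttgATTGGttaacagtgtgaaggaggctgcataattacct
ATTGG began 48 bases before the start in H2-Aa, 59 in H2-Eb1, 61 in H2-DMb1 and 57 in H2-Ob. Of the relatives not printed, H2-Oa held it 43 and H2-DMb2 90 bases before the start, while H2-DMa held neither motif at 1 start and ATTGG 198 bases before another. ATTGG between 100 and 30 bases before the start was present in 8.56% of 32851 promoters of the same length. CCAAT or ATTGG anywhere in the window was present in 37.4% of them, and TGACG or CGTCA in 20.8%. Among the monocyte genes, the Cd68 window held CCAAT 230, 84 and 60 bases before the start and CGTCA 92 bases before it. F13a1 held ATTGG 244 bases before 1 start and CGTCA 91 bases before another, and the Ccr2, Ly86 and Ly6c2 windows held neither motif.

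The libraries held between 3825289.5 and 6253100.5 counts. Levels are given as CPM, read counts scaled by library total and TMM factor, on which scale 3 counts were worth 0.489 to 0.876. Genes of the KL gate were detected in every library, among them Mpo at 4284 to 6889 CPM and Kit at 29.4 to 61.9 CPM, whereas the Sca-1 gene Ly6a had at most 20 counts. BcorWT replicate 2 stood apart: the rRNA-like gene Gm42418 took 1.43% of its counts and 14.3% to 27.9% of the other 3, and its correlation of log2 CPM with BcorWT replicate 1 was 0.893, the lowest of the 6 pairs (up to 0.947). Bcor had 104 and 113 raw counts in BcorΔE9-10 and 58 and 79 in BcorWT, not scaled for the unequal library totals. The positions of these 3′ reads were not examined, and the counts do not check the deletion. Across all genes, edgeR's quasi-likelihood test called 2 genes at an adjusted p under 0.05 in either direction (0.0166%), Gm11425 and Gm13167, both higher in BcorΔE9-10. None of the 10 genes was among them, nor did any pass with limma-voom or DESeq2.

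All 4 class II genes were at their highest in BcorWT replicate 2, while BcorWT replicate 1 was close to the BcorΔE9-10 libraries. Cd74 (GRCm38 chr18:60803848-60812652, plus strand), the invariant chain, was at 4.25 and 3.59 CPM in BcorΔE9-10 replicates 1 and 2 (23 and 22 counts) and at 4.67 and 16.2 CPM in BcorWT replicates 1 and 2 (16 and 86 counts). The groups did not overlap, but BcorWT replicate 1 lay just above the mutant libraries and replicate 2 lay 3.46-fold above replicate 1. The group means were 3.92 ± 0.470 and 10.4 ± 8.14 CPM (SD, n = 2 each), and the log2 fold change of BcorΔE9-10 against BcorWT was -1.43 (SE 0.65, edgeR adjusted p = 0.945).

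H2-Aa (chr17:34282744-34287823, minus strand), the α chain of I-A, was at 6.84 and 7.50 CPM in BcorΔE9-10 and at 5.55 and 25.2 CPM in BcorWT, from 37, 46, 19 and 134 counts. The groups overlapped, with the lowest and the highest library both BcorWT, and the log2 fold change was -1.12 (SE 0.66, edgeR adjusted p = 0.945). Its β chain partner H2-Ab1 (chr17:34257689-34269419, plus strand) was at 8.13 and 6.19 CPM in BcorΔE9-10 and at 8.76 and 14.1 CPM in BcorWT, from 44, 38, 30 and 75 counts. Here the groups did not overlap and the BcorWT libraries differed least among the class II genes, by 1.61-fold, with a log2 fold change of -0.68 (SE 0.47, edgeR adjusted p = 0.945). H2-Eb1 (chr17:34305867-34316674, plus strand), the β chain of I-E, spread the most. It was at 4.44 and 11.9 CPM in BcorΔE9-10 and at 4.96 and 40.5 CPM in BcorWT, from 24, 73, 17 and 215 counts. Both genotypes thus held a library near 5 CPM, BcorWT replicate 2 was 8.15-fold above BcorWT replicate 1, and the log2 fold change was -1.49 (SE 0.87, edgeR adjusted p = 0.945). I-E needs an α chain as well, and the gene of that chain, H2-Ea-ps, which GENCODE annotates as a polymorphic pseudogene in the same region, was not analysed here.

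**Figure D1:**
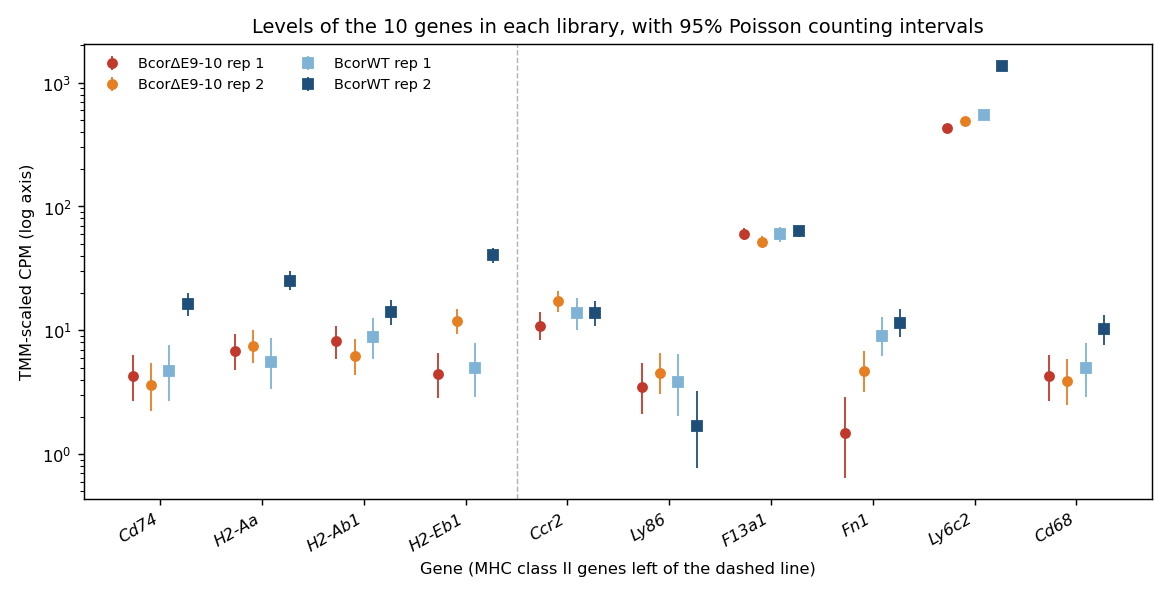
TMM-scaled CPM on a log axis of the 10 genes in each library, with circles for BcorΔE9-10, squares for BcorWT and bars for 95% Poisson counting intervals. BcorWT replicate 2 is the highest point for 8 of the 10 genes, and for H2-Eb1 it stands at 40.5 CPM against 4.44 to 11.9 CPM in the other libraries.

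Summed over the 4 class II genes, the level was 23.7 CPM (95% Poisson interval 19.7 to 28.1, 128 counts) in BcorΔE9-10 replicate 1 and 29.2 CPM (25.1 to 33.8, 179 counts) in replicate 2. In BcorWT it was 23.9 CPM (19.0 to 29.7, 82 counts) in replicate 1 and 96.0 CPM (87.8 to 104.7, 510 counts) in replicate 2. These intervals cover counting error only, and replicate 2 lay beyond the interval of each other library while BcorWT replicate 1 lay within the range of the mutant libraries. The ratio of group means, BcorWT over BcorΔE9-10, was 2.27 with all libraries and 0.907 without BcorWT replicate 2. In sorted bulk cells, fewer cells of a type and less RNA per cell cannot be told apart.

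The same library stood out among the other genes to different extents. BcorWT replicate 2 was the highest of the 4 libraries in 8 of the 10 genes, where it was the highest in 34.5% of all genes. It was over 2-fold above each other library in 5 of the 10 (Cd74, H2-Aa, H2-Eb1, Ly6c2 and Cd68), against 4.32% of all genes. The median log2 ratio of BcorWT replicate 2 to replicate 1 was 1.99 over the class II genes, 0.86 over the 10 genes and -0.03 over the 12017 genes with a finite ratio. Both rules on this library were set after its values were seen. The low Gm42418 share was also found in this library alone. With Gm42418 removed before scaling, the ratio of class II sums was 2.31. That removal alters only the scaling (median shift of log2 fold changes -0.013), so it cannot show whether library quality bears on these genes, which was not tested.

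**Figure D2:**
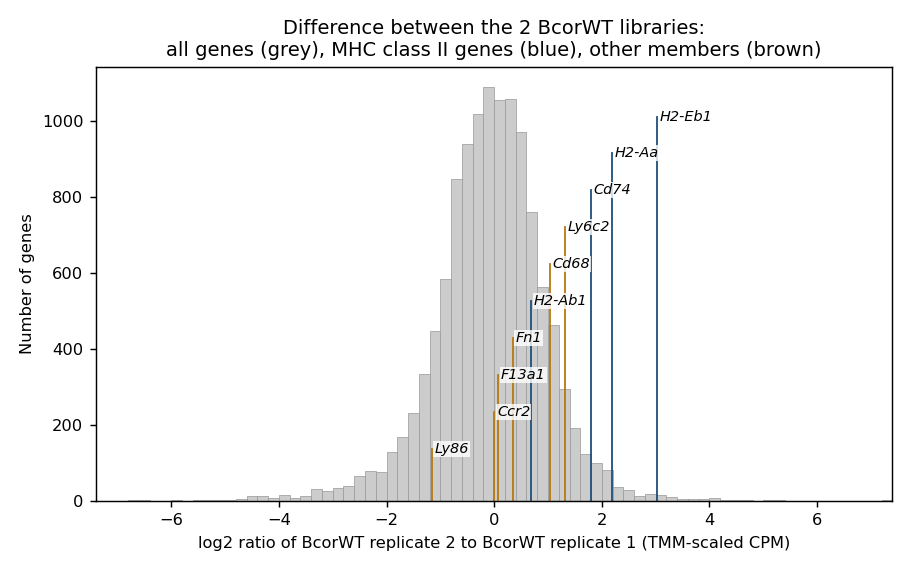
Histogram of the log2 ratio of BcorWT replicate 2 to BcorWT replicate 1 over all genes (number of genes on the vertical axis), with a line for each of the 10 genes. Cd74, H2-Aa and H2-Eb1 lie at the right, up to 8.15-fold for H2-Eb1, while Ccr2, F13a1 and Fn1 lie near the middle and Ly86 to the left.

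Of the monocyte genes, Fn1 was the only one of the 10 genes with an unadjusted p under 0.05. Fn1 (chr1:71585520-71653200, minus strand) encodes fibronectin, an adhesive matrix glycoprotein that inflammatory monocytes and macrophages also make. It was at 1.48 and 4.73 CPM in BcorΔE9-10 and at 9.05 and 11.5 CPM in BcorWT, from 8, 29, 31 and 61 counts. Both BcorWT libraries exceeded both mutant libraries, and here BcorWT replicate 1 did not fall to the mutant level. The means of 3.10 ± 2.30 and 10.3 ± 1.72 CPM (SD, n = 2 each) differed by 3.31-fold, with a log2 fold change of -1.71 (SE 0.64). It did not pass adjustment over all genes (edgeR adjusted p = 0.945). The log2 fold change stayed between -2.77 and -1.12 when any library was left out. The unadjusted call was lost, however, without BcorΔE9-10 replicate 1 (log2 fold change -1.12) and without BcorWT replicate 2 (-1.52).

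Ly6c2 (chr15:75108158-75111970, minus strand) encodes the Ly-6C antigen that marks inflammatory monocytes and that the Gr-1 antibody, often used for lineage depletion, also binds. It was at 429 and 491 CPM in BcorΔE9-10 and at 550 and 1365 CPM in BcorWT, from 2320, 3011, 1885 and 7253 counts. The groups did not overlap, but BcorWT replicate 2 was 2.48-fold above BcorWT replicate 1, a wider gap than that between replicate 1 and either mutant library. The log2 fold change was -1.06 (SE 0.46, edgeR adjusted p = 0.945). The last 500 transcript bases of Ly6c2 and its neighbour Ly6c1 (chr15:75044018-75048830, minus strand) were 98.2% identical, so 3′ reads may be split between them and each count is uncertain. Ly6c1 alone was at 45.6 and 72.9 CPM in BcorΔE9-10 and at 114 and 241 CPM in BcorWT (log2 fold change -1.59, SE 0.45, edgeR adjusted p = 0.945). With both genes added, the sum was 474 and 564 CPM in BcorΔE9-10 and 665 and 1606 CPM in BcorWT, with a log2 fold change of -1.13 (SE 0.46, edgeR adjusted p = 0.945).

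Cd68 (chr11:69664213-69666153, minus strand), an endolysosomal glycoprotein of macrophages and monocytes, was also at its highest in BcorWT replicate 2. Its level was 4.25 and 3.91 CPM in BcorΔE9-10 and 4.96 and 10.2 CPM in BcorWT, from 23, 24, 17 and 54 counts. The groups did not overlap, yet 3 of the 4 libraries lay between 3.91 and 4.96 CPM, and the log2 fold change was -0.90 (SE 0.57, edgeR adjusted p = 0.945).

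Ccr2, F13a1 and Ly86 gave no such pattern, and their groups overlapped. Ccr2 (chr9:124101950-124113557, plus strand), the receptor for Ccl2 that lets monocytes leave the marrow, was at 10.9 and 17.1 CPM in BcorΔE9-10 and at 13.7 CPM in both BcorWT libraries, from 59, 105, 47 and 73 counts. Both wild-type values lay between the mutant ones, and the log2 fold change was 0.03 (SE 0.41, edgeR adjusted p = 0.995). F13a1 (chr13:36867178-37050244, minus strand), the A subunit of coagulation factor XIII and an early gene of monocyte progenitors, was at 60.1 and 51.3 CPM in BcorΔE9-10 and at 59.9 and 62.9 CPM in BcorWT, with 205 to 334 counts a library. Its 4 libraries lay closer together than those of any class II gene, and the log2 fold change was -0.14 (SE 0.30, edgeR adjusted p = 0.973). Ly86 (chr13:37345208-37419036, plus strand), the secreted partner of the receptor Cd180, was at 3.51 and 4.56 CPM in BcorΔE9-10 and at 3.80 and 1.69 CPM in BcorWT, from 19, 28, 13 and 9 counts. In contrast to the class II genes, its lowest library was BcorWT replicate 2, and the log2 fold change was 0.59 (SE 0.69, edgeR adjusted p = 0.952).

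**Figure D3:**
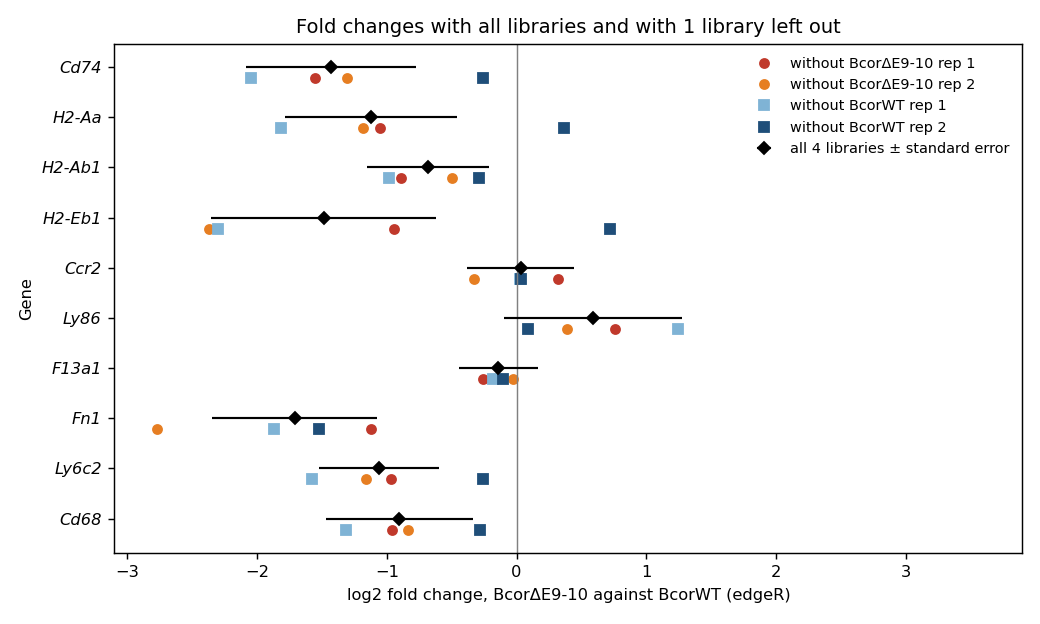
Log2 fold changes of BcorΔE9-10 against BcorWT (edgeR) with all 4 libraries (diamonds, bars ± standard error) and with each library left out (smaller symbols). Without BcorWT replicate 2 the H2-Aa and H2-Eb1 values move from -1.12 to 0.37 and from -1.49 to 0.72, whereas all Fn1 values stay at or below -1.12.

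In all, 8 of the 10 log2 fold changes were negative, with a median of -0.98 against -0.03 over all genes. At an unadjusted p under 0.05 by edgeR, 1 of the 10 genes was lower in BcorΔE9-10, where 3.07% of all genes were, and 0 were higher, where 1.34% of all genes were. The groups did not overlap, with BcorΔE9-10 lower, for 5 of the 10 genes (Cd74, H2-Ab1, Fn1, Ly6c2 and Cd68) against 17.1% of all genes, and with BcorΔE9-10 higher for 0 against 16.8%. Calls at the adjusted threshold differed with the library left out. When BcorWT replicate 1 was left out, Cd74 (log2 fold change -2.05, adjusted p = 0.0412), H2-Aa (-1.81, 0.0320), H2-Eb1 (-2.30, 0.0306) and Ly6c2 (-1.57, 0.0283) passed in edgeR, beside 413 genes lower and 183 higher in all. When BcorWT replicate 2 was left out instead, H2-Aa and H2-Eb1 were at 0.37 and 0.72, Cd74 and Ly6c2 both at -0.26, and none of the 10 genes passed. In either case the lone BcorWT library was assumed to vary like the pair of the other group.

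Other genes of class II presentation had a smaller median log2 ratio of BcorWT replicate 2 to replicate 1, of 0.08 for loading and regulation and 0.25 for processing, against 1.99 for the 4 class II genes. Of 22 genes of peptide loading and regulation, 19 were measured (Ciita, H2-Oa and H2-Eb2 were not analysed here), 0 had an unadjusted p under 0.05 in either direction (3.07% of all genes lower and 1.34% higher), and the median log2 fold change was -0.26. Groups did not overlap for 3 of the 19 genes lower and 1 higher (Jak2, log2 fold change 0.59, SE 0.31), against 17.1% and 16.8% of all genes. In this list 11 of the 19 log2 fold changes were negative, against 6317 of 12067 over all genes. BcorWT replicate 2 was highest in 8 of the 19, against 34.5% of all genes. H2-Ob lay the other way, at 4.44 and 1.47 CPM in BcorΔE9-10 and 0.88 and 2.07 CPM in BcorWT (0.93, SE 0.86), with overlapping groups. H2-DMa, the α chain of the peptide-loading molecule, was at 17.0 and 14.8 CPM in BcorΔE9-10 and at 15.2 and 35.9 CPM in BcorWT (log2 fold change -0.69, SE 0.46, edgeR adjusted p = 0.945). Its β chain H2-DMb1 was at 42.5 and 32.4 CPM against 38.3 and 60.4 CPM (-0.40, SE 0.36, edgeR adjusted p = 0.945). In both genes BcorWT replicate 2 was again the highest and replicate 1 sat at the mutant level. The myeloid and B cell transcription factor gene Spi1 was at 171.5 and 163.8 CPM in BcorΔE9-10 and at 153.9 and 400.3 CPM in BcorWT (-0.73, SE 0.46, edgeR adjusted p = 0.945). Rfx5, a subunit of the RFX complex on class II promoters, was at 23.8 and 18.9 CPM against 27.7 and 20.3 CPM (-0.17, SE 0.36, edgeR adjusted p = 0.973), with overlapping groups. Irf8, a factor needed for monocyte and dendritic cell development, was at 243.8 and 188.3 CPM against 280.4 and 274.4 CPM (-0.36, SE 0.32, edgeR adjusted p = 0.945), and its BcorWT libraries were almost equal.

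Among 16 genes of class II processing and endosomal traffic, 15 were measured (Lgmn was not analysed here), 0 had an unadjusted p under 0.05 (3.07% of all genes lower and 1.34% higher), and the median was -0.20. Groups did not overlap for 3 genes in each direction, a share close to the 17.1% and 16.8% of all genes. Ctss, the main protease that removes the invariant chain in antigen-presenting cells, had 78 and 80 counts in BcorΔE9-10 and 55 and 71 in BcorWT (log2 fold change -0.10, SE 0.38). Sppl2a, which cleaves the last membrane-bound fragment of the invariant chain, had groups that did not overlap in the opposite direction, at 28.8 and 31.5 CPM against 23.9 and 13.2 CPM (0.71, SE 0.39, edgeR adjusted p = 0.945). By CPM, Cd74 was thus highest in BcorWT replicate 2, Ctss in BcorWT replicate 1 and Sppl2a in BcorΔE9-10 replicate 2.

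The monocyte list held 51 genes, of which 43 were measured. By edgeR's unadjusted p under 0.05, 4 were lower in BcorΔE9-10 (Ly6c1, Pld4, Clec4a1 and Pf4, the last also a gene of platelets), where 3.07% of all genes were, and 0 were higher, where 1.34% were. None passed the adjusted threshold, and the median log2 fold change was -0.12. Groups did not overlap for 11 of the 43 genes lower in BcorΔE9-10 and for 5 higher, against 17.1% and 16.8% of all genes. Pld4, an endolysosomal nuclease of myeloid and plasmacytoid cells, was at 4.62 and 5.22 CPM in BcorΔE9-10 and at 8.18 and 13.9 CPM in BcorWT (-1.17, SE 0.50, edgeR adjusted p = 0.945). Clec4a1, a C-type lectin of monocytes, had 0 and 3 counts in BcorΔE9-10 and 11 and 14 in BcorWT (-3.39, SE 1.11, edgeR adjusted p = 0.945). The BcorWT mean was 5.60-fold above a mutant floor of 3 counts, a ratio without counting error. Only its BcorWT libraries, at 3.21 and 2.63 CPM, reached the 2.03 CPM that every gene reached in at least 2 libraries. Its being among the genes analysed may thus rest on the group where it was high, so its call and lack of overlap are no test. Csf1r, the receptor for the growth factor of monocytes and macrophages, was at 28.3 and 27.7 CPM against 35.6 and 53.3 CPM (-0.67, SE 0.34, edgeR adjusted p = 0.945). Its groups did not overlap, and the mutant libraries were nearly equal. Cd14, a lipopolysaccharide co-receptor, lay the other way at 19.6 and 28.7 CPM against 16.6 and 11.1 CPM (0.81, SE 0.40, edgeR adjusted p = 0.945), without overlap. In the whole list, 31 of the 43 log2 fold changes were negative, against 6317 of 12067 over all genes.

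Dendritic cell genes were measured for 18 of 35, and their median log2 fold change was -0.03. By edgeR's unadjusted p under 0.05, 1 was lower in BcorΔE9-10 (Bst2) and 1 higher (Id2), where 3.07% and 1.34% of all genes were. Groups did not overlap for 4 of the 18 lower and 3 higher, against 17.1% and 16.8% of all genes. Bst2 encodes tetherin, an interferon-inducible antigen of plasmacytoid dendritic cells. It was at 14.0 and 15.5 CPM in BcorΔE9-10 and at 17.8 and 75.8 CPM in BcorWT (-1.67, SE 0.61, edgeR adjusted p = 0.945), so again BcorWT replicate 2 alone was high. Id2, an inhibitor of E proteins needed for conventional dendritic cells and innate lymphoid cells, was at 87.0 and 118 CPM against 57.8 and 56.5 CPM (0.84, SE 0.32, edgeR adjusted p = 0.945). Flt3, the receptor for the dendritic growth factor Flt3 ligand, was at 6.28 and 4.73 CPM against 9.93 and 6.96 CPM, and the conventional dendritic factor gene Zbtb46 had 7 to 11 counts a library. The subset markers Siglech, Xcr1, Clec9a, Batf3, Cd209a and Irf4 were not analysed here, so the class II counts could not be set beside them.

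Macrophage genes were measured for 9 of 25, with 0 at an unadjusted p under 0.05 in edgeR (3.07% of all genes lower and 1.34% higher) and a median of -0.20. Groups did not overlap for 2 of the 9 lower and 0 higher, against 17.1% and 16.8% of all genes. Adgre1, the C1q genes, Mertk, Marco and Cd163 were not analysed here. Of the integrins, transglutaminase, chemokines and receptors that partner Fn1, F13a1, Ccr2 and Ly86, 12 of 16 were measured, 0 had an unadjusted p under 0.05, where 3.07% of all genes were lower and 1.34% higher, and the median was 0.09. Cd180, the receptor that Ly86 partners, was at 6.10 and 1.79 CPM in BcorΔE9-10 and at 4.96 and 3.76 CPM in BcorWT, with overlapping groups. Itgb1, the β chain of the main fibronectin receptors, was at 63.6 and 48.3 CPM against 48.5 and 50.4 CPM. Groups did not overlap for 2 of these 12 genes with BcorΔE9-10 lower and for 1 with it higher (Tgm2), shares at or below the 17.1% and 16.8% of all genes. Those lower were Itgb7, a β chain of fibronectin-binding integrins, at 12.8 and 11.1 CPM against 16.9 and 21.6 CPM, and the cytokine gene Tgfb1, at 30.9 and 26.1 CPM against 31.2 and 94.3 CPM.

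**Figure D4:**
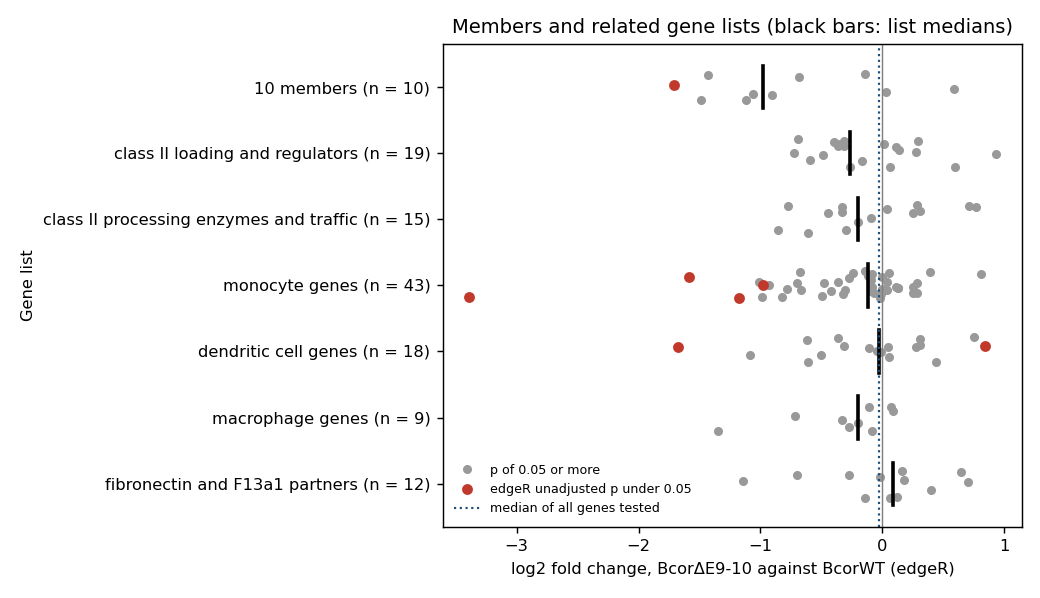
Log2 fold changes of BcorΔE9-10 against BcorWT (edgeR) for the 10 genes (top) and the genes of each list, 1 point a gene, red where the unadjusted p is under 0.05, with a black bar at each median and a dotted line at the median of all genes. Among the 10 genes and the class II, monocyte, dendritic, macrophage and partner lists, medians run from -0.98 for the 10 genes to 0.09 for the fibronectin and F13a1 partners. The leftmost point is Clec4a1, whose fitted value depends on the prior count because a mutant library has 0 counts.

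Markers of other cells that express class II or could enter the gate were set beside these values. Of 19 B cell markers, 6 were measured, and their summed level was 87.0 and 61.6 CPM in BcorΔE9-10 and 73.3 and 67.7 CPM in BcorWT. This sum lay within the mutant range in BcorWT replicate 2, the library with the high class II level. Gene by gene, Ighm, at 52.3 CPM there against 35.0 to 43.2 CPM elsewhere, and Cd79b, at 6.77 CPM against 3.21 to 4.99 CPM, were highest in that library, 3 of the 6 were highest in BcorΔE9-10 replicate 1 and 1 in BcorWT replicate 1. The part of B cells was not tested, and the defining markers Cd79a, Ms4a1 and Pax5 were not analysed here. The 14 mature neutrophil markers, all measured, summed to 64820 and 158798 CPM in BcorΔE9-10 and to 96429 and 147348 CPM in BcorWT. This sum, most of it from a few abundant genes such as S100a8, was highest in BcorΔE9-10 replicate 2. Gene by gene, however, 9 of the 14 neutrophil markers were highest in BcorWT replicate 2, as the class II genes were, against 34.5% of all genes. The other 5 were highest in BcorΔE9-10 replicate 2, and the median log2 ratio of BcorWT replicate 2 to replicate 1 was 1.07. Ngp, a neutrophil granule gene, was at 16822 CPM in BcorWT replicate 1 and 54003 CPM in replicate 2. The part of such cells in the class II levels was not tested. The 4 of 17 measured T and NK cell markers summed to 152 and 133 CPM against 139 and 263 CPM, most of it Nkg7, which is also a granule gene of myeloid cells. Of these 4, 3 were highest in BcorWT replicate 2 and 1 in BcorWT replicate 1. Groups did not overlap for 2 with BcorΔE9-10 lower (Lck and Klrb1c) and 0 higher, against 17.1% and 16.8% of all genes. Lck was at 2.77 and 2.28 CPM against 5.26 and 6.96 CPM, and Klrb1c reached 2.03 CPM in BcorWT alone. The 3 of 13 measured stromal and endothelial markers, mostly Pecam1, summed to 59.3 and 42.2 CPM against 63.7 and 101 CPM. The 8 of 13 measured megakaryocyte markers summed to 372 and 446 CPM against 309 and 494 CPM. Of these 8, 5 were highest in BcorWT replicate 2, against 34.5% of all genes. At an unadjusted p under 0.05 in edgeR, 1 (Pf4) was lower, as 3.07% of all genes were, and 0 were higher (1.34%). Pf4 was at 14.8 and 12.4 CPM in BcorΔE9-10 and 23.4 and 30.1 CPM in BcorWT. The T and NK, stromal and megakaryocyte sums were all highest in BcorWT replicate 2, as the class II genes were, and their part in the class II levels was not tested. The 16 KL progenitor genes summed to 11324 and 8597 CPM against 11465 and 11426 CPM. Gene by gene, 4 of the 16 were highest in BcorWT replicate 2, against 34.5% of all genes, and 5 in BcorWT replicate 1. Kit was lowest in BcorWT replicate 2, at 29.4 CPM against 52.1 to 61.9 CPM elsewhere. Elane was highest there, at 2140 CPM against 656 to 904 CPM elsewhere. In the progenitor list only Klf1, an erythroid factor gene, had an unadjusted p under 0.05 in edgeR, and it was higher in BcorΔE9-10. Over all genes, 1.34% were higher and 3.07% lower by this rule. Klf1 had 24 and 17 counts in BcorΔE9-10 and 1 and 4 in BcorWT (edgeR adjusted p = 0.945). It reached 2.03 CPM, as every gene did in at least 2 libraries, in BcorΔE9-10 alone (4.44 and 2.77 CPM). Its being among the genes analysed may thus rest on the group where it was high, so this call is no test.

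Genes with the most similar profile were taken from the 155 genes of these lists by the root mean square distance between centred log2 CPM over the 4 libraries. For the class II genes they were Ifitm3 (distance 0.18), Tgfb1 (0.19), Tapbp (0.23), Spi1 (0.24) and Bst2 (0.24). Ifitm3, an interferon-inducible membrane protein, was at 34.2 and 56.2 CPM in BcorΔE9-10 and at 40.0 and 138.5 CPM in BcorWT. Tapbp, the tapasin of MHC class I loading, which lies in the same MHC locus, was at 105 and 116 CPM against 71.5 and 306 CPM. Ifitm3 and Tapbp both had their highest value in BcorWT replicate 2, with BcorWT replicate 1 below the higher mutant library. For the monocyte and macrophage genes the 4 nearest were Nfyc (0.03), Unc93b1 (0.10), H2-DMb2 (0.15) and Cst3 (0.16). Nfyc, a subunit of NF-Y, was at 20.7 and 25.8 CPM in BcorΔE9-10 and at 28.9 and 36.1 CPM in BcorWT. These likenesses rest on 4 libraries and carry no test.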

How the data were processed

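Quant-seq counts of KL cells from 2 BcorΔE9-10 and 2 BcorWT libraries were analysed. The authors filtered and trimmed reads (cutadapt, version 1.7 in the submitters' processing notes), mapped them to mm10 (GRCm38) with HISAT2 and made gene counts with featureCounts of Subread, and the deposited table holds unnormalised counts. In the columns of BcorΔE9-10 replicate 2 and BcorWT replicate 1 the deposited values were handled like estimated counts and rounded, because 1 gene, Gm4430, is not whole there. How genes were chosen for the table is not given in the sources used here, and every gene reached 2.03 CPM in at least 2 libraries. The genes and lists were chosen with earlier results of these data known.

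From these, edgeR 4.0.16 in R 4.3.3 was run with filterByExpr (0 genes removed), TMM scaling, glmQLFit and glmQLFTest, a prior count of 0.125 and Benjamini-Hochberg adjustment over 12067 genes, with no covariate. The standard error was the log2 fold change divided by the square root of F. P-values measure only the spread between these libraries, which may be technical. Summed counts carry exact 95% Poisson intervals. Profiles used log2 CPM with a prior count of 2. Named genes were the 10 genes, list genes whose groups did not overlap and whose unadjusted p was under 0.05, markers, Gm42418, Bcor and the 5 nearest profiles, of which 1 is not reported here. Other list genes (H2-DMa, H2-DMb1, H2-Ob, Jak2, Rfx5, Irf8, Ctss, Sppl2a, Csf1r, Cd14, Flt3, Zbtb46, Cd180, Itgb1, Itgb7 and Tgm2) and Gm11425 and Gm13167 were chosen once values had been seen. The fit was also tried on simulated data, and no result of that trial is reported or used here. Alternatives were DESeq2 size factors, no low-count filter, a minimum of 10 counts in all libraries, a replicate block, limma-voom (limma 3.58.1), DESeq2 1.42.0, leaving out the libraries in turn, a prior count of 2, removing Gm42418, and, chosen after seeing the data, the Ly6c sum and the rules on BcorWT replicate 2. Positions are from GENCODE M21, 3′ ends were compared with blastn 2.17.0, and figures drawn with matplotlib 3.10.9 and pandas 2.3.3 in Python 3.11.15. The labels give no batch or date.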

Additional observations from a re-analysis of the deposited data

How the results depend on the processing

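Fn1 kept its direction in all 11 alternatives that gave a value, with edgeR, limma-voom or DESeq2 adjusted p from 0.116 to 0.999, and Cd74, H2-Ab1, F13a1, Ly6c2 and Cd68 kept theirs in every one. Fn1 and Ly86 had too few counts for the filter of at least 10 counts in every library. With limma-voom, Ccr2 was at -7.73e-05. With 1 library left out, log2 fold changes ranged from -2.05 to -0.26 for Cd74, from -1.81 to 0.37 for H2-Aa, from -2.37 to 0.72 for H2-Eb1, from -1.57 to -0.26 for Ly6c2, from -1.32 to -0.28 for Cd68, from -0.98 to -0.29 for H2-Ab1, from 0.09 to 1.24 for Ly86 and from -0.33 to 0.32 for Ccr2. The positive H2-Aa and H2-Eb1 values came without BcorWT replicate 2 and the negative Ccr2 value without BcorΔE9-10 replicate 2. The cause was not tested.

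Counts depended on the library left out. Over all genes, those passing the adjusted threshold numbered 2 to 413 lower (0 with all libraries) and 4 to 183 higher (2 with all), and those with an unadjusted p under 0.05 numbered 173 to 1583 lower (371 with all) and 70 to 1430 higher (162 with all). The highest counts came without BcorWT replicate 1. Of the 10 genes, 0 to 4 passed the adjusted threshold, 0 to 6 had an unadjusted p under 0.05, 5 to 8 did not overlap with BcorΔE9-10 lower and 0 to 2 with it higher. Over all genes, 29.2% to 40.6% then did not overlap with BcorΔE9-10 lower and 29.0% to 40.9% with it higher. Unadjusted calls took 1.43% to 13.1% of all genes lower and 0.58% to 11.9% higher. By unadjusted p, lower genes numbered 0 to 5 in class II loading, 0 to 6 in processing, 0 to 10 in the monocyte list, 0 to 2 in the dendritic list, 0 to 1 in the macrophage list and 0 to 2 among fibronectin and F13a1 partners. Higher genes numbered 0 to 1, 0 to 1, 0 to 2, 0 to 1, 0 and 0 to 2 in these lists. The BcorWT over BcorΔE9-10 ratio of summed levels ranged from 0.907 to 3.64 for the class II genes (2.27 with all) and from 1.19 to 2.72 for the monocyte and macrophage genes (1.95 with all). The second ratio is mostly that of Ly6c2. This gene held 2320 of 2754 and 3011 of 3512 summed counts in BcorΔE9-10, and 1885 of 2198 and 7253 of 7784 in BcorWT.

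Adjusted calls over all genes were 1 lower and 4 higher with at least 10 counts in every library, 24 lower and 19 higher with DESeq2, and 4 higher with limma-voom. With that filter, which removed Fn1 and Ly86, 2 of the remaining members were lower at an unadjusted p under 0.05 in edgeR (Cd74 and Ly6c2). So were 3.40% of all genes kept. With DESeq2, 2 of the 10 genes were lower at that threshold (Fn1 and Ly6c2), as 3.17% of all genes were. DESeq2 gave 1 lower gene in class II processing and 1 among the fibronectin and F13a1 partners, and limma-voom, with 2.67% of all genes lower, gave 0 in the dendritic list.

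The replicate numbers were not shown to pair the libraries (correlation of deviations -0.094). With the replicate block, 9 genes were lower and 5 higher at the adjusted threshold, none of the 10 genes passed it, and 2 of them, Fn1 (log2 fold change -1.86) and Ly6c2 (-0.92), were lower at an unadjusted p under 0.05, as 2.63% of all genes were. DESeq2 size factors and removal of Gm42418 left each call and direction of the 10 genes as it was. The fit without a filter was the same fit, because filterByExpr removed 0 genes. A prior count of 2 kept each direction and left the p-values unchanged, so neither of these 2 settings could alter a call. Judged by the lowest count in any library, counting error limits Fn1 (8 to 61 counts a library) and Ly86 (9 to 28) the most.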
